A study of Mus musculus with 3 samples.

Results

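The 45 genes described here encode the machinery that starts and carries out DNA replication and the enzymes that make deoxynucleotides. They were chosen by symbol, as named genes of the G1/S transition and S phase. No cut on a measured value was used, but earlier results of these data were known. All 45 were found in the deposited table, each on 1 row, among 28074 gene symbols of which 15181 reached a mean of at least 1 TPM (a transcript level corrected for transcript length and scaled to a common library total). All 45 were above that mean.

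RNA was sequenced from spleen cells of 3 moribund mice with acute myeloid leukemia, which make up the only group. The genotype field reads miR196b-/-Dnmt3afl/fl,Flt3ITD/ITD,Mx1Cre, so every mouse lacked miR-196b and carried floxed Dnmt3a alleles, the Flt3 internal tandem duplication and the Mx1-Cre transgene, while the titles name the Dnmt3a state as +/-. Mx1-Cre is driven by an interferon-inducible promoter and recombines in blood cells and in other tissues. Ages and sexes are not given, and cells bearing c-Kit were enriched with magnetic beads, so c-Kit itself is no finding. The mice are called 1, 2 and 3 here and carry the labels 5348, 5451 and 5480. The study set these leukemias beside controls with miR-196b intact from another series; those columns of the table were not used here, so no effect of the deletion on replication genes was tested and no p-value is given. Every comparison below is between individual mice or between genes.

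Replication is licensed in G1, when the origin recognition complex (ORC), Cdc6 and Cdt1 load the MCM2-7 ring onto DNA. In S phase, kinases that include cyclin E with Cdk2 turn the ring into the active CMG helicase by adding Cdc45 and GINS, and primase and the DNA polymerases then copy the strands behind it. Most of these genes are transcribed in bursts before S phase under E2F factors, so their RNA is widely read as a mark of dividing cells; in blood, dividing progenitors carry much of it and mature granulocytes carry little.

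The 3 columns summed to between 927169 and 929731 TPM, and the depth of each library is unknown from a table of TPM. The spread between mice is therefore the only error that can be given. Markers of the labelled immature myeloid cells were present: Kit stood at 139, 149 and 133 TPM in mice 1, 2 and 3, and all 6 markers of that list were expressed, with a sum of 2173, 1706 and 2916 TPM. Markers of other cells moved between mice. The summed level of 7 neutrophil markers was 2451, 6430 and 21431 TPM, that of 5 dendritic cell markers, 1 of which is also on the immature list, was 428, 807 and 542 TPM, and that of 7 erythroid markers found was 50.5, 35.2 and 93.2 TPM. The 5 monocyte and macrophage markers found summed to 453, 521 and 807 TPM, 6 B cell markers to 17.3, 14.7 and 18.0 TPM and 6 T and NK cell markers to 13.5, 19.3 and 20.97 TPM. Heat shock and immediate early genes, which respond to handling, summed to 1464, 4839 and 4241 TPM over 9 genes. No marker found was listed at 0 in all mice. In bulk RNA, fewer cycling cells and less replication RNA in each cell cannot be told apart.

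The members together held 3496, 2936 and 3653 TPM in mice 1, 2 and 3, or 0.362% ± 0.0402 (SD, n = 3) of the column sums. Mouse 2 was the lowest of the 3. Their median on the log2(TPM + 1) scale was 5.91, 5.44 and 5.86 and averaged 5.74 ± 0.26 (SD, n = 3), against 4.19 ± 0.08 for all expressed genes. Most members therefore lay in the upper part of the expressed range. Pcna was the most abundant member and lay at percentile 98.3 of expressed genes by mean level, and Gins3 was the least abundant, at percentile 32.8.

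**Figure D1:**
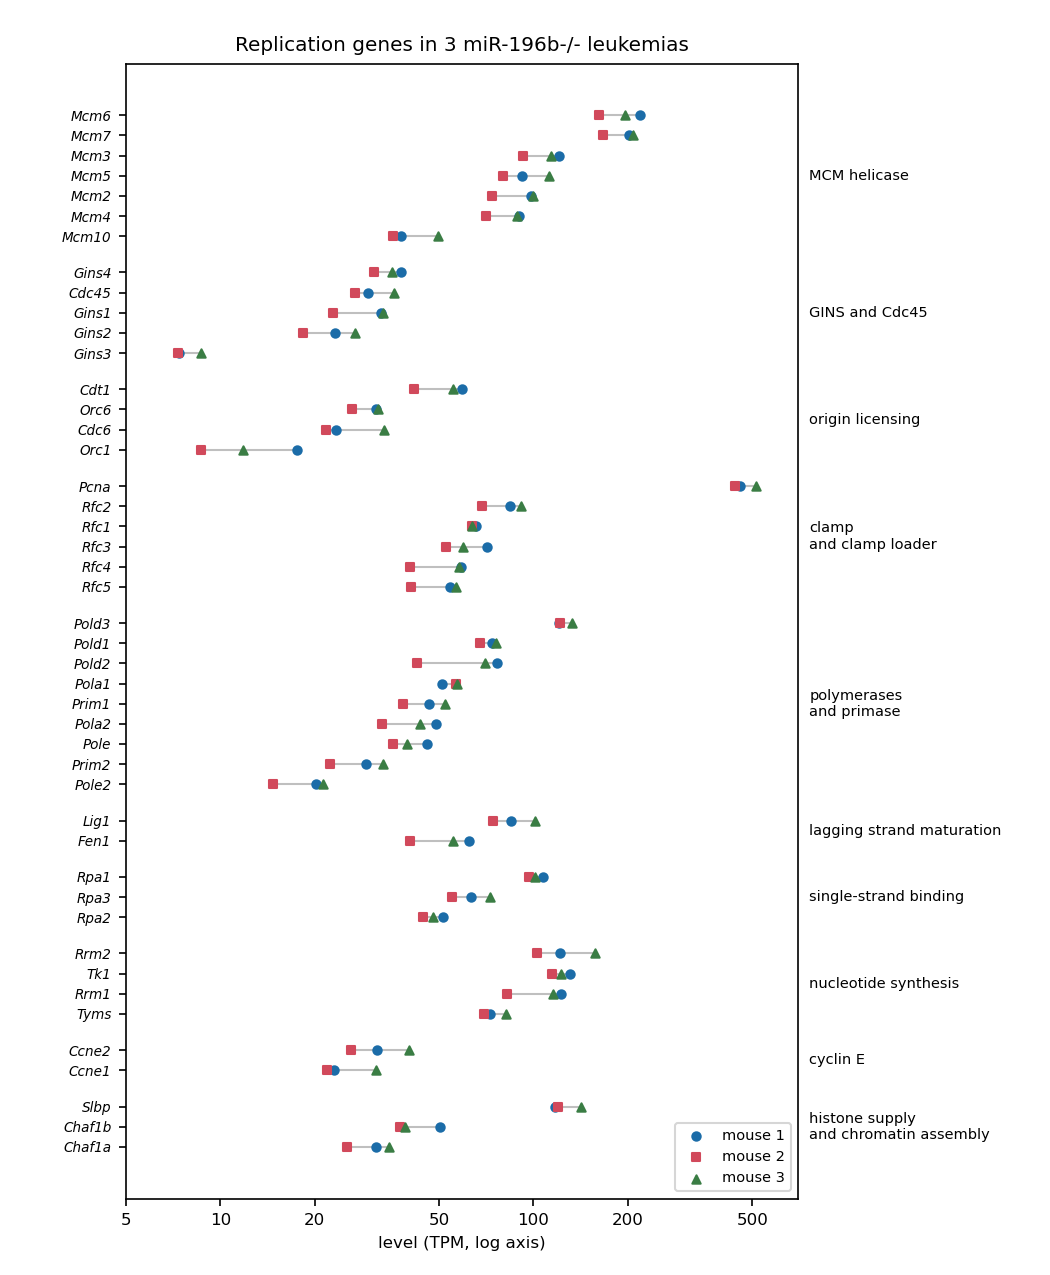
Level of each of the 45 members in each mouse, in TPM on a log axis, grouped by role; each point is 1 mouse and the grey line spans the 3. Levels run from Gins3 (7.31 to 8.71 TPM) to Pcna (441 to 516 TPM), and mouse 2 is the left-most point for 41 members.

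The MCM2-7 ring is the motor of the replicative helicase and holds 1 copy of each subunit. Mcm6 (chr1:128331590-128359664 on GRCm38) had 219, 162 and 196 TPM in mice 1, 2 and 3, which averages 192 ± 28.8 TPM (SD, n = 3). Mcm7 (chr5:138164583-138172422) had 203, 167 and 207 TPM, a mean of 192 ± 22.3 TPM. These subunits stood apart from the rest of the ring, with mouse 2 lowest for both. Mcm3 followed at 120, 92.4 and 114 TPM, Mcm5 at 92.1, 80.2 and 112 TPM, Mcm2 at 98.1, 73.9 and 99.9 TPM and Mcm4 at 89.9, 70.7 and 88.5 TPM. The highest of the other 4 in any mouse, 120 TPM for Mcm3, lay under the lowest value of Mcm6 or Mcm7. Within each mouse the most abundant subunit exceeded the least abundant one 2.44-fold, 2.36-fold and 2.34-fold, and Mcm4 was the least abundant each time. The ratio of subunits varied little between mice (SD 0.0524) while the summed level of all 7 MCM genes went from 681 TPM in mouse 2 to 867 TPM in mouse 3. Mcm10, which helps to activate the loaded helicase and is no part of the ring, was lower than every ring subunit, at 37.7, 35.6 and 49.5 TPM.

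Mcm7 also hosts microRNA genes: in GENCODE M21 its exons contain Mir25 and Mir93 on the same strand. They cover 1.90% and 1.99% of its exon bases. The deleted microRNA is another one, and no value of these microRNAs is given here.

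Promoter letters of the ring genes are shown because E2F factors are known to act on this family. All 6 ring members had their lowest level in mouse 2, against 33% of expressed genes. A link between the letters and these levels was not tested. RefSeq promoter windows on GRCm38.p6 (250 bases before to 50 bases after an annotated start, 300 in all) were matched for 37 of the 45 members. Mcm4, Gins1, Gins2, Gins4, Rfc2, Prim2, Pole and Ccne2 were not matched. The windows are printed 5′ to 3′ on the gene's strand, and capitals mark matches to TTTCGCGC or TTTGGCGC on either strand.

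Mcm3 (chr1:20820263-20820562, minus strand): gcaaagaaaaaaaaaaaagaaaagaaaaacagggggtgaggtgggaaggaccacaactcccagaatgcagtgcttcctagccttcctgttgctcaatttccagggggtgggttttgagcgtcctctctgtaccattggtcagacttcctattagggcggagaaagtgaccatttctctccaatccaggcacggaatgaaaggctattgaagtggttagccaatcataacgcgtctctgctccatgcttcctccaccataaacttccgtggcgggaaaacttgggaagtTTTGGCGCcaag
Mcm5 (chr8:75109259-75109558, plus strand): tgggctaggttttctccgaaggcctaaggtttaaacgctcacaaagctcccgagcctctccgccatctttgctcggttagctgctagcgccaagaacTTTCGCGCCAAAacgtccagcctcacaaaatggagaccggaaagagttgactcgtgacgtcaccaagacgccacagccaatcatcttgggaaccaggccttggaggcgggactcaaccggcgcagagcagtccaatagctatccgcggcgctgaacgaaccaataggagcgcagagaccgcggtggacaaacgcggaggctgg
Mcm6 (chr1:128359656-128359955, minus strand): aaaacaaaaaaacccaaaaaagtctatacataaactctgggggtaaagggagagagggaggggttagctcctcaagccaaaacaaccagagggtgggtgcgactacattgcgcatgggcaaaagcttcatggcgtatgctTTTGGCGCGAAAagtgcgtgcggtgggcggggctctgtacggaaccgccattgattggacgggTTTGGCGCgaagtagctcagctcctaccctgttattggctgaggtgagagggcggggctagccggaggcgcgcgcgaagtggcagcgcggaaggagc
Mcm7 (chr5:138171834-138172133, minus strand): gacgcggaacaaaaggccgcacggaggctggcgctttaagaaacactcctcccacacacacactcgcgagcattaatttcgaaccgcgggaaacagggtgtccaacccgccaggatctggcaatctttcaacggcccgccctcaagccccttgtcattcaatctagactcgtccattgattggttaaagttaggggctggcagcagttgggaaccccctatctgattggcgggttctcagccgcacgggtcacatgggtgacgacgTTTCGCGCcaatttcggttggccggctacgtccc

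In Mcm5 the capitals are 2 overlapping matches on opposite strands, whose first bases lie 153 and 149 bases before the annotated start. Mcm6 had such an overlapping pair 110 and 106 bases before its start and a further match 47 bases before it. In Mcm3 and Mcm7 the match lay 38 and 16 bases after the start. The fifth ring gene with a window, Mcm2, held none of these letters.

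Over all members, 10 of the 37 with a window (27.0%) held TTTCGCGC or TTTGGCGC on either strand, against 0.929% of the 27025 genes and 0.813% of the 32851 windows in the table. Among expressed genes, 9935 of 15181 had a window, so any comparison with them leaves out the rest. Of these 9935, 1.79% held the letters. The median share of G and C was 60.2% in members' windows, 52.8% over all genes and 60% over those expressed genes. Among the 9955 windows between the members' quartiles of 54% and 65.7% G and C, 1.48% held the letters. The other 6 members with them are shown with up to 20 bases on either side, because they span licensing, clamp loading, priming, leading-strand synthesis and ligation.

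Orc1 (chr4:108579407-108579454, plus strand): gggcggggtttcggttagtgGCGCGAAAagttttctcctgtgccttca
Cdt1 (chr8:122568027-122568064, plus strand): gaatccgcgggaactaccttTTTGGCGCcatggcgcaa
Rfc3 (chr5:151651191-151651238, minus strand): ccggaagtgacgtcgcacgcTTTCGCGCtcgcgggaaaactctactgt
Pola1 (chrX:93632266-93632313, minus strand): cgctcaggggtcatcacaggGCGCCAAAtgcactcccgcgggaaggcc
Pole2 (chr12:69228153-69228200, minus strand): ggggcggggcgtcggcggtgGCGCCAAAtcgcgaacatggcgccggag
Lig1 (chr7:13278832-13278875, plus strand): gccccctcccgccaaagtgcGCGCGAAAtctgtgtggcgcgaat

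A related core, GGCGGGAA on either strand, was found in 7 members (Mcm3, Rfc4, Prim1, Pold1, Pold3, Rrm1 and Chaf1a), or 18.9%, against 2.52% of all genes and 4.55% of the expressed genes with a window. Mcm3 held both kinds, so 16 of 37 members held at least 1 of them. A CCAAT box, on either strand, was found in 23 of 37 members (62.2%), against 41.1% of all genes and 43.1% of the expressed ones. The GC box GGGCGG was found in 29 members (78.4%), against 38.2% of all genes and 65.2% of the expressed ones. The 20 mitosis genes with a window held the E2F letters once (5%) and a CCAAT box in 18 cases (90%). The 25 other nucleotide synthesis genes with a window held the E2F letters in no case and a CCAAT box in 10 (40%). A match is a run of letters in a window and no binding was measured here.

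**Figure D2:**
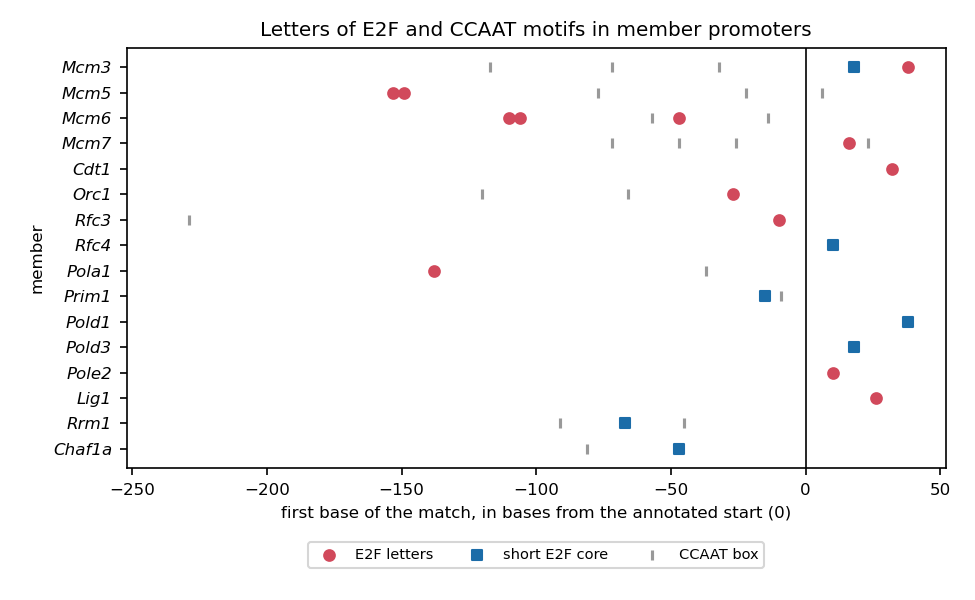
Position of each match in the RefSeq promoter windows of the 16 members that hold the 8-letter E2F motif (red) or the shorter core (blue), with CCAAT boxes as grey ticks; the horizontal axis is the distance in bases from the annotated start, and genes with several windows are drawn by each window's own start. Mcm5 and Mcm6 carry overlapping pairs of E2F letters upstream of the start.

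GINS and Cdc45 join the MCM ring to form the active helicase. Gins3 (chr8:95633453-95645060) had 7.40, 7.31 and 8.71 TPM, the lowest level of any member in every mouse. Gins4 had 37.8, 31.0 and 35.3 TPM, Gins1 32.6, 22.8 and 33.1 TPM and Gins2 23.2, 18.4 and 26.9 TPM. The order Gins4, Gins1, Gins2, Gins3 was the same in all 3 mice, and the 4 subunits of this complex spanned 4.47 ± 0.563-fold (SD, n = 3). Cdc45 stood at 29.7, 27.0 and 36.0 TPM, and Mcm7 exceeded it 6.25 ± 0.537-fold. All 5 of these genes were lowest in mouse 2. Of the exon bases of Gins2, 67.3% also lie in exons of Gse1 on the opposite strand, and whether the quantification used strand is not given in the sources used here.

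Of the licensing factors, Cdt1 (chr8:122568015-122573554), which brings the MCM ring to ORC, had 59.3, 41.4 and 55.3 TPM. Its inhibitor geminin, Gmnn, had 53.0, 41.6 and 56.5 TPM, so that the ratio of Cdt1 to Gmnn was 1.12, 0.996 and 0.978. The pair stayed near equal while both were lowest in mouse 2. Cdc6, the ATPase that recruits Cdt1, had 23.4, 21.8 and 33.3 TPM and was highest in mouse 3. Orc6, the smallest ORC subunit, had 31.5, 26.4 and 31.8 TPM. Orc1 (chr4:108579423-108614833), the cell-cycle-regulated ORC subunit, had 17.6, 8.66 and 11.8 TPM. Its mouse 1 value was 2.03 times that of mouse 2, and its SD of 0.47 log2 units was the widest of the 45 members. The ORC subunits that are not members were more abundant in part, with Orc3 at 122 ± 8.89 TPM and Orc4 at 107 ± 5.71 TPM (SD, n = 3) beside Orc5 at 31.5 ± 5.03 and Orc2 at 26.8 ± 6.19 TPM. Orc3 exceeded Orc1 by 10.3 ± 2.90-fold, the widest span among the complexes examined.

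**Figure D3:**
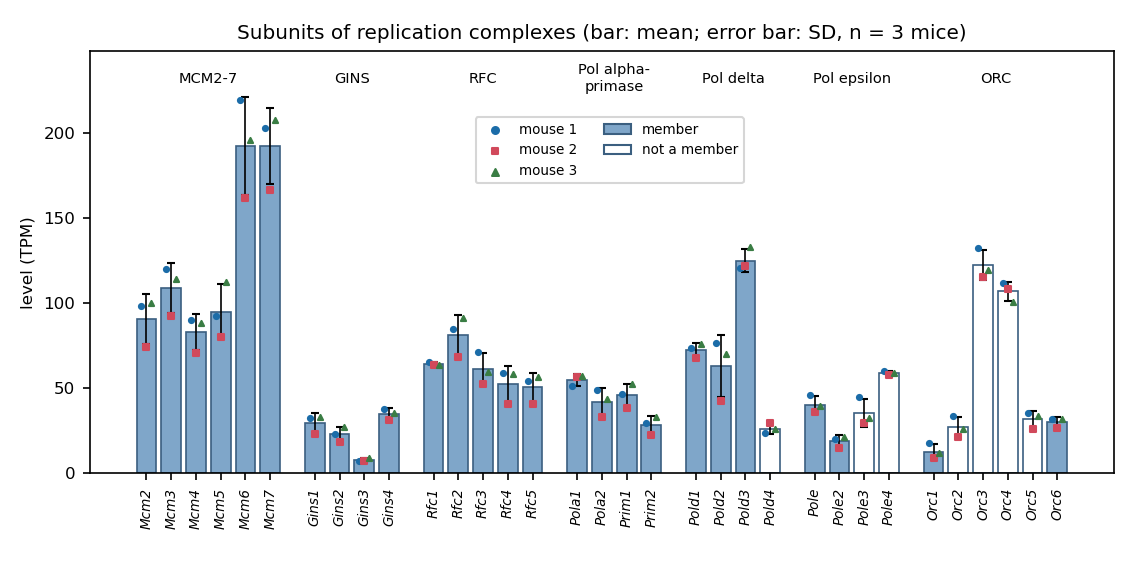
Level in TPM of the subunits of 7 replication complexes; bars are means and error bars SD over 3 mice, points are single mice, and open bars are subunits that are not among the 45 members. Mcm6 and Mcm7 exceed the other ring subunits, Gins3 the least abundant GINS subunit, and Orc3 and Orc4 stand far above Orc1.

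Pcna, the sliding clamp that holds polymerases on DNA, was at chr2:132249162-132253314 and had 458, 441 and 516 TPM, a mean of 472 ± 39.3 TPM (SD, n = 3). The next member in each mouse was Mcm6 or Mcm7, at 219, 167 and 207 TPM, so Pcna stood clear of all other members in every mouse. The table also lists Pcna-ps2, a processed copy, at 1.45, 0.963 and 2.56 TPM, and Pcna-ps1 at 0. The 5 clamp loader subunits, which open the clamp, were close to each other: the highest exceeded the lowest 1.56-fold, 1.69-fold and 1.61-fold. Rfc1, the large subunit, had 65.6, 63.8 and 63.8 TPM and the narrowest SD of any member, 0.02 log2 units, at percentile 0.942 of expressed genes. The small subunits spread more, Rfc2 at 84.5, 68.4 and 91.1 TPM, Rfc3 at 71.4, 52.5 and 59.6 TPM, Rfc4 at 58.8, 40.4 and 58.0 TPM and Rfc5 at 54.0, 40.6 and 56.7 TPM. Each small subunit was lowest in mouse 2, and Rfc1 was level in mice 2 and 3.

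Polymerase alpha with primase starts each new strand. Pola1, its catalytic subunit, had 51.0, 56.6 and 56.9 TPM and was 1 of 3 members lowest in mouse 1. Its partners followed the more common pattern: Pola2 had 48.7, 32.8 and 43.6 TPM, Prim1, the catalytic primase, 46.4, 38.4 and 52.3 TPM and Prim2 29.2, 22.4 and 33.1 TPM. As a result the span of the 4 subunits was 2.53-fold in mouse 2 against 1.75-fold and 1.72-fold in mice 1 and 3.

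Polymerase delta copies the lagging strand. Pold3, an accessory subunit, had 120, 122 and 133 TPM, above the catalytic Pold1 at 73.6, 67.6 and 75.8 TPM. Both had narrow spreads, with SDs of 0.08 and 0.09 log2 units. Pold2 (chr11:5872180-5878292), the subunit that links Pold1 to Pold3, had 76.3, 42.4 and 70.0 TPM. It was 1.80 and 1.65 times as high in mice 1 and 3 as in mouse 2, the only member at least 1.5-fold above mouse 2 in both. Pold4, which is not a member, had 23.4, 29.5 and 25.7 TPM and was highest in mouse 2.

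Polymerase epsilon copies the leading strand. Its catalytic subunit Pole had 45.7, 35.7 and 39.5 TPM and its second subunit Pole2 20.2, 14.8 and 21.3 TPM, both lowest in mouse 2. The small histone-fold subunits Pole3 and Pole4, which are not members, stood at 35.5 ± 8.11 and 59.0 ± 1.24 TPM (SD, n = 3). Fen1, the flap nuclease that trims Okazaki fragments, had 62.1, 40.4 and 55.3 TPM, and Lig1, the ligase that joins them, 84.9, 74.6 and 101 TPM. Lig1 was above Fen1 in every mouse, but 78.8% of Fen1 exon bases lie in the antisense gene Gm10143, which was listed at 8.57, 9.20 and 9.43 TPM.

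The trimer RPA coats single-stranded DNA. Rpa1 had 107, 96.7 and 101 TPM, Rpa3 63.0, 55.0 and 72.8 TPM and Rpa2 51.6, 44.5 and 47.8 TPM. Rpa1 exceeded Rpa2 2.12 ± 0.0494-fold (SD, n = 3). The order of the 3 subunits was the same in all mice, and Rpa1 and Rpa2 varied less than most members, with SDs of 0.07 and 0.10 log2 units against a median of 0.22.

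Ribonucleotide reductase makes deoxynucleotides from ribonucleotides. Its large subunit Rrm1 had 122, 82.3 and 116 TPM, and its small, S phase subunit Rrm2 (chr12:24708241-24714146) had 121, 102 and 158 TPM. The ratio of Rrm2 to Rrm1 was 0.992, 1.24 and 1.36, near equality in mouse 1 and above it in the others. Rrm2b, the small subunit used outside S phase, stood at 20.1, 19.3 and 18.0 TPM, so Rrm2 exceeded it 6.71 ± 1.81-fold (SD, n = 3). Thymidylate synthase, Tyms, had 72.9, 69.3 and 81.6 TPM, and thymidine kinase, Tk1, which salvages thymidine, had 131, 115 and 122 TPM. Tk1 was above Tyms in every mouse, by 1.65 ± 0.153-fold, and both varied little. Tk1 exceeded its mitochondrial counterpart Tk2 by 7.38 ± 0.718-fold.

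Cyclin E activates Cdk2 at the start of S phase. Ccne1 had 23.1, 21.9 and 31.5 TPM and Ccne2 31.7, 26.2 and 40.2 TPM. Both were highest in mouse 3, and Ccne2 was above Ccne1 in each mouse by 1.28 ± 0.0887-fold (SD, n = 3). Slbp, which binds the stem-loop of histone mRNA, had 117, 120 and 142 TPM and was lowest in mouse 1. The subunits of the chromatin assembly factor CAF-1, which deposits histones behind the fork, were at 31.4, 25.3 and 34.5 TPM for Chaf1a and 50.3, 37.6 and 38.8 TPM for Chaf1b. Chaf1b led Chaf1a 1.60-fold, 1.48-fold and 1.13-fold. Of the exon bases of Chaf1a, 52.5% lie in exons of Ubxn6 on the opposite strand.

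Most members shared a direction between mice. Of the 45, 41 were lowest in mouse 2, against 33% of the 15181 expressed genes. The exceptions were Pola1, Pold3 and Slbp, lowest in mouse 1, and Rfc1, lowest in mouse 3. The median member was 0.33 log2 units lower in mouse 2 than the mean of mice 1 and 3, where the median expressed gene was 0.03 lower. After scaling to a common upper quartile, 36 members were lowest in mouse 2, against 33.5% of expressed genes, and the median difference was -0.31. The order of mice 1 and 3 was less settled. As deposited, mouse 1 had the top value for 18 members, against 48.6% of expressed genes, and mouse 3 for 27, against 20.3%. Scaling shifted every gene of mouse 1 by -0.08 log2 units and of mouse 3 by 0.07, and gave counts of 7, against 35.6% of expressed genes, and 38, against 30.4%. No member was highest in mouse 2 under either scaling, against 31.1% of expressed genes as deposited and 5151 of 15181 after scaling.

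The sizes were modest. In mouse 1, 3 members (Orc1, Pold2 and Fen1) were at least 1.5 times their mouse 2 level, against 11.5% of expressed genes, and 0 were that far lower, against 10.4%. In mouse 3, 4 members (Cdc6, Pold2, Rrm2 and Ccne2) were at least 1.5 times their mouse 2 level, against 6.92%, and 0 were that far lower, against 9.91%. Between mice 3 and 1, 0 members reached that difference in either direction, against 8.47% of expressed genes higher in mouse 3 and 13.5% higher in mouse 1. As deposited, the member shares past 1.5-fold were below the background, except for mouse 3 over mouse 2, where 4 of 45 was close to it. After scaling, 7 members (Gins1, Gins2, Cdc6, Prim2, Pold2, Rrm2 and Ccne2) were at least 1.5-fold higher in mouse 3 than in mouse 2, against 7.77% of expressed genes, and 2 (Cdc6 and Ccne1) than in mouse 1, against 11.2%. The direction against mouse 2 was shared by most members under both scalings. Members had a median SD over the mice of 0.22 log2 units, against 0.21 for all expressed genes and 0.19 for the 9939 genes within the members' range of mean levels. Without mouse 2 the members' value was 0.11 and that of all expressed genes 0.18; without mouse 1 they were 0.28 and 0.14.

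Some other readouts shared these differences and others did not. Of the 6 immature myeloid markers, Mpo (1081, 864 and 1632 TPM), Elane (410, 271 and 736 TPM) and Myb (193, 124 and 171 TPM) were lowest in mouse 2. That is 50%, against 33% of expressed genes. As deposited, Kit, Flt3 and Cd34 were lowest in mouse 3, and Kit and Flt3 (146, 157 and 106 TPM) were highest in mouse 2. After scaling Kit was lowest in mouse 1 and Cd34 in mouse 2. That put 4 of the 6 lowest in mouse 2, against 33.5% of expressed genes. The median marker of that list was 0.40 log2 units lower in mouse 2 than the mean of the other mice. All 6 expressed erythroid markers were also lowest in mouse 2 and highest in mouse 3. Of the 5 dendritic cell markers, 4 were highest in mouse 2 and 4 were lowest in mouse 1, against 31.1% and 24.4% of expressed genes. The median dendritic marker differed from the mean of the other mice by -0.87 log2 units in mouse 1 and by 0.87 in mouse 2. All 9 heat shock and immediate early genes were lowest in mouse 1, with 5 highest in mouse 2 and 4 in mouse 3. Their median differences were -1.01 in mouse 1 and 0.64 in mouse 2. The part of these cells, or of handling, in the level of the replication genes was not tested. Neutrophil markers were lowest in mouse 1 in 7 of 7 cases, against 24.4% of expressed genes, and highest in mouse 3 in 7 of 7, against 20.3%. Of the members, 3 were lowest in mouse 1 and 27 highest in mouse 3, and after scaling 9 and 38. The part of neutrophils was not tested either. With 3 mice, no correlation across samples is given.

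**Figure D4:**
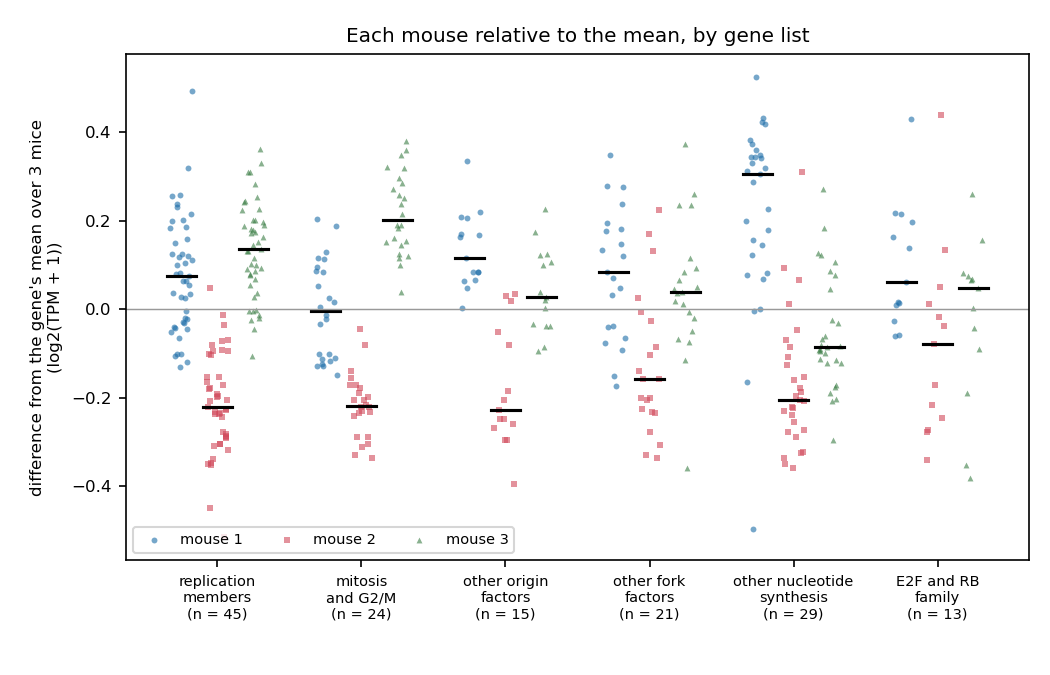
Difference of each mouse from the gene's own mean over the 3 mice, in log2(TPM + 1) units, for the 45 members and 5 related lists; each point is 1 gene in 1 mouse and black bars are medians. Mouse 2 lies below 0 for most genes of each list, mitosis genes lie highest in mouse 3, and other nucleotide synthesis genes highest in mouse 1.

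The mitosis list shared the members' low values in mouse 2 and leaned more to mouse 3. As deposited, mouse 1 had the top value for 12.5% of its genes, against 40% of members. Its median gene was 0.21 log2 units higher in mouse 3 than in mouse 1, where the median member was 0.04 higher. Of 24 mitosis and G2/M genes, 23 were lowest in mouse 2 and 21 highest in mouse 3, against 33% and 20.3% of expressed genes. After scaling these counts were 17 and 24, against 33.5% and 30.4%. The median mitosis gene was 0.33 log2 units lower in mouse 2 than the mean of the other mice, as was the median member. No difference between lists was tested. Their levels ran from Ttk, a spindle checkpoint kinase, at 17.0 ± 3.15 TPM to Top2a, a topoisomerase, at 306 ± 49.4 TPM (SD, n = 3). The mitosis list's median was 5.90, 5.61 and 6.01 on the log2(TPM + 1) scale, close to the members' in each mouse. Cyclin A, Ccna2, at 103 ± 12.4 TPM, was above cyclin E, and Ccne2 stood at 0.315 ± 0.0386 of it.

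Other genes of nucleotide synthesis leaned to mouse 1. Mouse 1 had the top value for 25 of 29 of them and mouse 3 for 1, and after scaling for 18 and 7. Among expressed genes these shares were 48.6% and 20.3% as deposited, and 35.6% and 30.4% after scaling. The median of these genes was 0.50 log2 units higher in mouse 1 than in mouse 2, where that of the members was 0.28 higher. Paics, a purine synthesis enzyme, was the most abundant at 241, 165 and 186 TPM. Samhd1, which breaks deoxynucleotides down, went the other way, with 131, 231 and 211 TPM, lowest in mouse 1. The members of nucleotide synthesis, Rrm1, Rrm2, Tyms and Tk1, split between mice 1 and 3, with 2 genes highest in each as deposited; after scaling all 4 were highest in mouse 3.

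Of 15 other origin factors, 12 were lowest in mouse 2 and 10 highest in mouse 1, and after scaling 12 and 5. Among expressed genes these shares were 33% and 48.6% as deposited, and 33.5% and 35.6% after scaling. The 5 origin factors were thus near the share of expressed genes. They ran from the helicase Recql4 at 6.47 ± 1.64 TPM to Mcmbp, which binds MCM proteins, at 124 ± 7.15 TPM. Of 21 other fork factors, 15 were lowest in mouse 2 (13 after scaling). Among these, Dscc1 of an alternative clamp loader stood lowest at 12.0 ± 2.41 TPM and Ssrp1, a histone chaperone, highest at 167 ± 22.0 TPM. Of 9 replication checkpoint genes, 7 were lowest in mouse 2 and 8 highest in mouse 1; after scaling the counts were 8 and 5. Rad17 was the lowest of them at 4.40 ± 1.57 TPM and the kinase Wee1 the highest at 36.9 ± 6.65 TPM.

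The E2F and RB family controls transcription of many replication genes. Of its 13 genes, 9 were lowest in mouse 2, against 33% of expressed genes, with a median difference of -0.12 log2 units from the other mice. After scaling 7 were lowest there. Of 10 housekeeping genes, 6 were lowest in mouse 2, with a median difference of -0.17, and 5 after scaling. E2f1, an activator, had 22.5, 22.0 and 22.4 TPM, and E2f7, a repressor of E2F targets, had 77.3, 109.5 and 61.6 TPM and was highest in mouse 2. Tfdp1, the partner of E2F proteins, was the most abundant of the family at 153 ± 24.9 TPM and E2f5 the least at 14.8 ± 3.15 TPM. Of 14 G1/S kinases and regulators, 13 were expressed and 7 of these were lowest in mouse 2. Cdk4, the kinase of D cyclins, led them at 424, 282 and 369 TPM, and Cdkn2a, an inhibitor of it, was the lowest at 0.259 ± 0.162 TPM (SD, n = 3).

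Sites for the deleted microRNA were looked for in the members, since miR-196b acts on 3′ ends of mRNA. The mature sequence, from RefSeq on GRCm38.p6, is shown with its seed (bases 2 to 8) in capitals.

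miR-196b-5p: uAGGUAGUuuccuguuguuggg

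The complement of the seed, ACTACCT, was searched in the annotated 3′ untranslated region of each gene's longest coding transcript in GENCODE M21, which is on the same assembly. It was found in 3 of 45 members (6.67%), against 6.68% of 11923 expressed genes with such a region and 6.06% of 21020 genes in all. Members' regions were shorter, with a median of 531 nt against 1110 nt for expressed genes. The sites are printed with 10 bases on either side and the match in capitals.

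Mcm10: aggggagagaACTACCTacccatgggc
Gins3: aaagcttggaACTACCTggttggggcg
Rpa1: tatagcccaaACTACCTtgaagtcctg

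Mcm10 had its site at base 1578 of 1679, Gins3 at base 126 of 1723 and Rpa1 at base 2184 of 3139. All mice lacked the microRNA, so the levels of Mcm10, Gins3 and Rpa1 given above cannot show whether these letters have an effect. The share of members with a site was close to that of expressed genes.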

How the data were processed

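RNA sequencing of 3 leukemias of 1 group was analysed. The submitters' processing notes name kallisto and mm10, with no version or role; annotation, filters and strand settings are not given in the sources used here. The authors deposited a table of linear TPM values per gene symbol, although its name says log2 FPKM: per the file's values, the 3 columns were never below 0 and their sums differed by 0.276% of their mean. Another 3 per-sample columns match no sample of this series and were not used here. Rows without a symbol (795) or with a date in its place (27) were left out, 0.734% to 0.787% of the column sums, and 90 symbols on several rows were summed. No 2 libraries held the same values: of 15181 expressed genes, 9 to 16 had exactly equal deposited values, with no tolerance, between any pair.

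Levels were put on the log2(TPM + 1) scale; expressed means a mean of at least 1 TPM. Mean and SD were taken over the 3 mice, and mice were compared per gene by ratio, with 1.5 as the fold. With 1 group no test was possible; whether the spread between mice is only biological is not known. Alternatives are given in the closing section. The members, lists and alternatives were chosen with earlier results of these data known. All members may be named, and of each related list the highest and lowest gene, of which 1 is not reported here; the other genes named (complex partners, Gmnn, Rrm2b, Tk2, Ccna2, Samhd1, E2f1, E2f7 and the immature myeloid markers) were chosen after their values were seen, as was the count of members lowest in mouse 2. The search for microRNA sites was added later too. Exon overlaps and coordinates come from GENCODE M21 (GRCm38), promoters from RefSeq GRCm38.p6. The computation was checked on simulated data. Python 3.11.15, numpy 2.4.6, pandas 2.3.3 and matplotlib 3.10.9 were used.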

Additional observations from a re-analysis of the deposited data

How the results depend on the processing

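For 26 results, 237 values were recomputed: 222 were counted as unchanged, 12 moved and 3 changed sign. The promoter motif count is among the 26 and was not recomputed. Counts within 1.5-fold, and other values within a spread set for each result, were counted as unchanged. That rule is wide: members highest in mouse 3 went from 27 to 38 after scaling and were counted as unchanged. So was the median difference of mouse 3, at 0.204 as deposited, 0.402 without mouse 1 and 0.042 without mouse 2. With a common upper quartile, the median difference of mouse 1 from the others went from 0.11 to -0.0041, the number of members highest in mouse 1 from 18 to 7, and the numbers at least 1.5-fold apart from 4 to 7 (mice 3 and 2) and from 0 to 2 (mice 3 and 1). The 41 members lowest in mouse 2 were 36 after scaling, 42 without mouse 3 and 44 without mouse 1. The median SD of members ranged from 0.111 (without mouse 2) to 0.284 (without mouse 1), so mouse 2 carried much of the spread. The median difference of mouse 1 ranged from -0.042 (without mouse 2) to 0.277 (without mouse 3). With a mouse left out, 18 to 42 members were highest in mouse 1, 1 to 3 in mouse 2 and 27 to 44 in mouse 3, since only 2 mice remained to rank, and the MCM ratio ranged from 2.33 to 2.37. Values of a mouse that was left out, or of a pair that held it, could not be given.

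An alternative added after seeing the data left out the 8 members that share over 10% of their exon bases with 1 other gene (Gins2, Orc1, Rfc2, Rfc4, Rfc5, Fen1, Ccne2 and Chaf1a). The number at least 1.5-fold apart between mice 1 and 2 went from 3 to 1, the median of the lagging strand genes from 6.08 to 6.45, that of histone supply and chromatin assembly from 5.42 to 6.20, and the members' median minus that of mitosis genes from -0.11 to 0.12. So members and mitosis genes cannot be ordered by level. The pseudocount, the thresholds on the mean, symbols on several rows and pseudogene rows moved no result. Apart from the pseudocount, these settings could change little or nothing. The lowest member mean was 7.81 TPM, above the highest threshold of 5 TPM. No member symbol was on several rows, and only Pcna had pseudogene rows. No paired analysis was possible because all mice belong to 1 group. The depth is unknown, so counting error in low values such as those of Gins3 cannot be stated.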
